A study of Mus musculus with 18 samples.

Results

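PU.1 binding in pre-B cells was compared before and 3 h after the start of their conversion into macrophages. The material was the C10 line, a pre-B cell line derived from HAFTL cells that expresses an inducible C/EBPα (C/EBPαER-GFP, C/EBPα fused to the ligand-binding domain of the estrogen receptor). Both groups carried this fusion. The study reports weak C/EBPα signal before induction and proposes that the transgene is somewhat leaky. The 0 h cells were not induced (controls are labelled as given the ethanol solvent), and the 3 h cells received β-estradiol (β-Est), which moves the fusion protein into the nucleus, together with IL-3 and CSF-1. The sources give different β-Est concentrations, and the comparison rests on time alone. C10 is 1 transformed cell line, and the values describe that line under induction from a transgene, not other pre-B cells. Both ChIP-seq libraries were made with the PU.1 antibody sc-352, and the study names the 0 h reads as merged without saying from what. Of the 18 libraries of the series, the other 16 (C/EBPα, C/EBPβ and the later PU.1 time points) were used only as readouts at the bins chosen here. RNA was not measured in these files, so the cell identity could not be checked against expressed markers.

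The 0 h library held 6884238 reads on chromosomes 1 to 19 and the 3 h library 6414863. The 0 h reads were drawn at random down to 6414863, and reads were counted in 200-bp bins of the mouse genome (mm9). The bins compared were those with 8 or more reads in either library, 64092 of 12361703 bins (0.518%). Fold changes were computed after 1 read was added to both counts. With 1 library per time point there is no replicate check, no test was run, and bins are not replicates of a condition. All intervals are exact 95% intervals (Clopper-Pearson). Those of a single bin or site cover counting error of its reads only. Those of a share of bins treat bins as independent draws. Touching bins are not independent, so these intervals can be too narrow.

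PU.1 is an ETS family transcription factor needed for both B cells and macrophages, and it is expressed at a lower level in B cells than in macrophages. In B cells it often binds composite elements together with the interferon regulatory factors IRF4 or IRF8. In macrophages much of its binding lies in distal enhancers that also hold C/EBP and AP-1 factors, and C/EBPα together with PU.1 is the classical pair that drives myeloid gene expression.

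The bins at the ends of the comparison are shown first, because the sequence of a bin was not used to choose it. Touching bins were joined into sites, and each site was represented by its bin with the most reads over both libraries. The letters below are the plus strand of mm9. Capitals mark matches on either strand to the PU.1 consensus GAGGAAGT, the PU.1-IRF composite GGAANTGAA, the C/EBP consensus TTGCNNAA, the C/EBP-ATF composite TGATGCAA or the AP-1 consensus TGACTCA. A PU.1 match and a composite match can share the letters GGAAGT. A sequence without capitals held none of the 5 motifs. The first 4 are the sites with the largest increases outside annotated exons, each with 0 reads at 0 h after thinning.
Near Runx1, chr16:93191601-93191800: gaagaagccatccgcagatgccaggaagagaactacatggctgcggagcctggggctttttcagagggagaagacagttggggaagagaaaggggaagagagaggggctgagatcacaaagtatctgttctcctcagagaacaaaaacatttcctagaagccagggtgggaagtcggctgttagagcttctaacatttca
Near Plxnc1, chr10:94473001-94473200: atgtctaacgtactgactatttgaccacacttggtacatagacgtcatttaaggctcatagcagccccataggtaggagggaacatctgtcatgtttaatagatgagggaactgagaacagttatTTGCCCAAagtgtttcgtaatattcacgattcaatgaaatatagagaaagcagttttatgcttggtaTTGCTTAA
Near Ythdf3, chr3:16081401-16081600: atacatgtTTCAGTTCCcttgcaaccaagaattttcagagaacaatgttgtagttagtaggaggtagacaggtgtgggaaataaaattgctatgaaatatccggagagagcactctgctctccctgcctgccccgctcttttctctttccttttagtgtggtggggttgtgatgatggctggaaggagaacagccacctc
Near Pdss1, in an intron of Apbb1ip, chr2:22721601-22721800: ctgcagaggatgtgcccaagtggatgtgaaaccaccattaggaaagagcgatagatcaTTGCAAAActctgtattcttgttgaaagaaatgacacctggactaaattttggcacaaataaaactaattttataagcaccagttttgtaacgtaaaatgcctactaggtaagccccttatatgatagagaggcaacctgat

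The next 4 are the sites with the largest decreases outside exons. They were small, with 11 to 13 reads at 0 h and 0 at 3 h.
Near Scn11a, chr9:119754001-119754200: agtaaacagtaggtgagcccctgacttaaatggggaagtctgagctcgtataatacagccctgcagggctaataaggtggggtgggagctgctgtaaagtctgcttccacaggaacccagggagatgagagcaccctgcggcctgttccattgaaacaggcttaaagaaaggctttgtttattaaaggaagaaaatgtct
In an intron of Rps6ka5, chr12:101898401-101898600: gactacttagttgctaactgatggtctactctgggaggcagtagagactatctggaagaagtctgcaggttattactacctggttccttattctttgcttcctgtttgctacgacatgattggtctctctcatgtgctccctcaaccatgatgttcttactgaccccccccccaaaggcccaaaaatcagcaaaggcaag
In an intron of Ralgapa2, chr2:146088801-146089000: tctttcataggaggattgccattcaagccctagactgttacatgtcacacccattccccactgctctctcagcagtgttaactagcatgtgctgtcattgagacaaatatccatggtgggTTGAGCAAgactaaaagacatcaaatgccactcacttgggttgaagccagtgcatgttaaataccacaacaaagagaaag
Near Etv4, chr11:101684401-101684600: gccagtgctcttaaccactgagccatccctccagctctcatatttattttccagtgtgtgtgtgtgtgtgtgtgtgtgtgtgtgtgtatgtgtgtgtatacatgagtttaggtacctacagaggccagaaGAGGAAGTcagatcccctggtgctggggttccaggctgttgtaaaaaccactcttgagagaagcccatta

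The next pair had the most reads of all sites that changed by less than 1.5-fold.
Near Lifr, chr15:7035201-7035400: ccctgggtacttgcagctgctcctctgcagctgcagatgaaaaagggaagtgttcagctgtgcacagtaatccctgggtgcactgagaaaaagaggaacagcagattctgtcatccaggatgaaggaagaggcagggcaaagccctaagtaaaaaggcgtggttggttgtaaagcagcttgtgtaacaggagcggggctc
In an intron of 9830001H06Rik, chr2:156889201-156889400: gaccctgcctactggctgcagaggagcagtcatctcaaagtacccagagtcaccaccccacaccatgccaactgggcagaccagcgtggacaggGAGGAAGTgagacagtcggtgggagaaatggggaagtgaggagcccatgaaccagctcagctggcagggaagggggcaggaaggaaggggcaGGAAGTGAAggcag

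Because the largest folds fell on small sites, 3 strong sites were added after their values were seen. The first was among the lower sites with the most reads at 0 h, and the other two had the most reads at 3 h among the higher sites.
In an intron of Txndc11, chr16:11077801-11078000: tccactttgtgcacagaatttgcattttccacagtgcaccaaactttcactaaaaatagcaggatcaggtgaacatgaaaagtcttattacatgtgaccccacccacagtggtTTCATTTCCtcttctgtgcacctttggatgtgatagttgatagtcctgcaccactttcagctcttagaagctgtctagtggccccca
Near Pcgf5, chr19:36339801-36340000: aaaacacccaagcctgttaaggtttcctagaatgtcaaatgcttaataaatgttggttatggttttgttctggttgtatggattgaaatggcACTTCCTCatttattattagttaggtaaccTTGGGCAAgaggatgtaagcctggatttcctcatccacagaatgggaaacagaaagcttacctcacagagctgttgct
Near Slc24a3, chr2:144873601-144873800: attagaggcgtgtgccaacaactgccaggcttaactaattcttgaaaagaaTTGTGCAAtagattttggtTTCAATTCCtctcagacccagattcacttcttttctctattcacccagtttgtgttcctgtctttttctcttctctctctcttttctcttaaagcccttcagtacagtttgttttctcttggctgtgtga

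More bins gained PU.1 reads within 3 h than lost them. At 3 h, 13594 bins were at least 2-fold higher (21.2%), 4343 were at least 2-fold lower (6.78%), and 46155 (72.0%) lay within 2-fold. Higher bins thus outnumbered lower bins 3.13 times, and at a 4-fold threshold 2850 against 570. The compared bins took up 15.9% of the reads at 0 h and 18.1% at 3 h. The median bin was shifted by a log2 ratio of 0.26 (quartiles -0.26 and 0.85), and changes are read against this shift. With ratios centred on that median, 8638 bins were higher and 7061 lower, so that higher bins made up 55.02% of the changed bins in place of 75.8%. Scaled to the reads outside the compared bins, the split was 13631 higher and 3586 lower (79.2% higher). The excess of higher bins therefore depends on the scaling, which these files cannot settle. It was not carried by single chromosomes: 18.7% to 23.0% of the bins of a chromosome were higher and 5.71% to 7.96% lower.

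**Figure D1:**
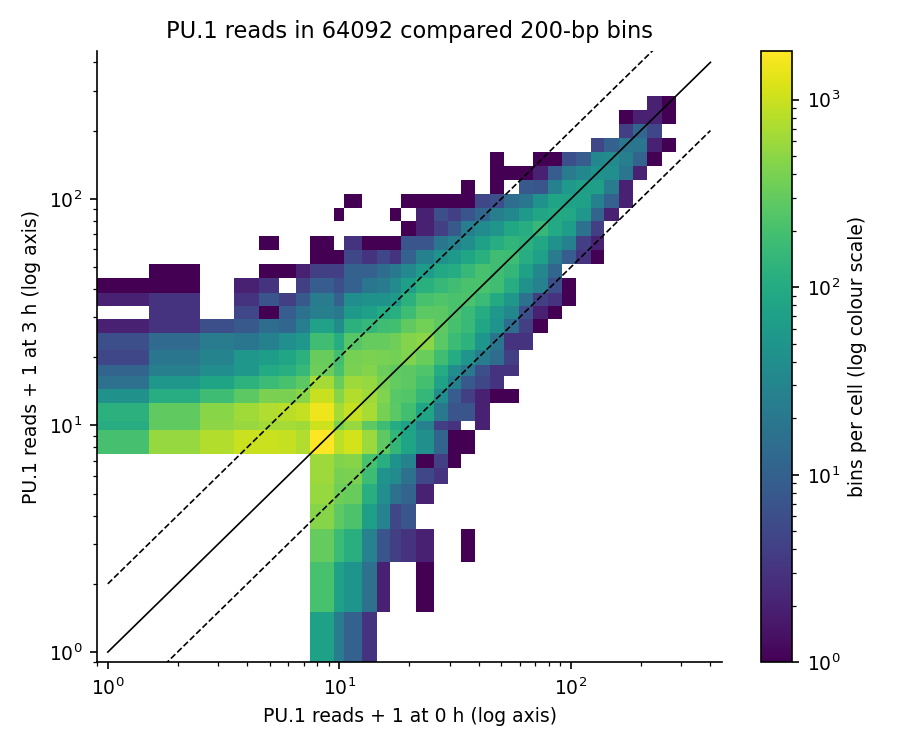
Reads of each compared bin at 0 h (x axis) and 3 h (y axis), with 1 read added, both on log axes; colour gives the number of bins, the solid line equal counts and the dashed lines 2-fold. The 64092 bins spread upwards at low counts, where 511 bins had 0 reads at 0 h, and they close in on the solid line at high counts.

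The share of bins called was largest at low counts, where counting error alone takes many bins past 2-fold. Among the 5083 bins with 8 to 11 reads over both libraries, every bin fell outside 2-fold by construction, 73.2% on the higher side. Among bins with 20 to 39 reads, 15.0% were higher and 3.68% lower. At 80 to 159 reads the shares were 3.89% and 0.622%, and among the 1364 bins with 160 or more reads 4 were higher and 3 lower. The median log2 ratio fell along the same order, from 0.36 at 12 to 19 reads to 0.23 at 20 to 39 and -0.07 at 160 or more. Taking only bins whose interval of the 3 h share excluded equal shares left 6280 higher and 1317 lower, which is 46.2% and 30.3% of the called bins. Of all 64092 compared bins these were 9.80% and 2.05%. Counting error alone takes some bins without a real change past such an interval. How many of the 6280 and the 1317 passed in this way was not tested, so the smaller lower group may hold few real decreases. Base composition differed little, with a mean GC content of 46.9% in higher, 48.1% in unchanged and 48.2% in lower bins, against 41.9% in all bins of the genome without unknown bases.

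Of the higher bins, 511 had 0 reads at 0 h after thinning, a count that allows up to 3 reads, and 109 lower bins had 0 reads at 3 h. Such bins entered the comparison only through the other library, so the counts describe the choice. The strongest of them lay 365 kb upstream of Runx1, a transcription factor of blood stem cells and their progeny. It had 0 reads at 0 h and 38 at 3 h, so the 3 h share of its reads was 100% (interval 90.7% to 100%). A site 65.9 kb upstream of Plxnc1, a semaphorin receptor, had 0 and 34 reads (3 h share 100%, interval 89.7% to 100%). Its sequence held a pair of C/EBP matches, seen above, and C/EBPα reads there were 2.31 at 0 h and 42.4 at 3 h per 10000000 reads of the library, the scale used for all other libraries. PU.1 at these sites did not stay at one level: at Plxnc1 it stood at 53.0 per 10000000 at 3 h, 47.8 at 12 h, 18.03 at 24 h and 3.92 at 48 h.

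Other sites of this kind differed in how long they kept their reads. The site 1.68 kb upstream of Ythdf3, which encodes a reader of methylated adenosine in RNA, had 0 and 33 reads (3 h share 100%, interval 89.4% to 100%). PU.1 reads there were 1.45 per 10000000 in the full 0 h library, 51.4 per 10000000 at 3 h, 71.7 at 12 h and 36.3 at 48 h, while C/EBPβ reads went from 1.76 at 3 h to 42.5 at 48 h. The site in an intron of Apbb1ip, an adaptor that activates integrins, had 0 and 26 reads. A site in an exon of Arpc5, a subunit of the actin-branching Arp2/3 complex, had 0 and 25. The intron of Chst15, a sulfotransferase gene, had 0 and 23 reads, then 11.5, 2.70 and 5.88 per 10000000 at 12, 24 and 48 h, alongside C/EBPα reads of 51.6 at 3 h and 8.57 at 12 h. The site 10.7 kb upstream of the olfactory receptor gene Olfr283 had 1 read at 0 h and 40 at 3 h (ratio 40, interval 6.78 to 1619). It also had the most C/EBPα reads of the 10 at 3 h, 92.2 per 10000000 against 1.16 at 0 h. The remaining 3, near Gm1966, in Pacsin2, which encodes a membrane-bending protein, and in Klhl6, a B cell gene, had 0 reads at 0 h and 19 to 21 at 3 h. Of the 10 bins, 5 held the C/EBP consensus, which was present in 12.7% of all higher bins and 9.23% of all compared bins. The 10 were picked for their extreme change, so this count does not describe the higher bins as a class.

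The largest decreases were smaller in reads. Near Scn11a, a sodium channel gene, and in Rps6ka5, which encodes the kinase MSK1, 13 reads at 0 h were followed by 0 at 3 h. The interval of their 3 h share was 0% to 24.7%. In the intron of Fam50b the count was 33 at 0 h and 2 at 3 h (ratio 0.0606, interval 0.00705 to 0.237), and this was the decrease with the most reads among the 10. Its bin held the PU.1-IRF composite and the E-box CAGGTG bound by E2A, and C/EBPα reads there were 0 at both times. PU.1 reads at Fam50b were 11.5, 7.21 and 6.86 per 10000000 at 12, 24 and 48 h, below the 50.8 of 0 h. A site 368 kb upstream of Arid1b, a subunit of the BAF remodelling complex, had 21 and 1 reads (ratio 0.0476, interval 0.00115 to 0.296). The other 6 sites, near Ralgapa2, Etv4, Cxcr4, Stim2, Lig1 and Lmx1b, had 9 to 11 reads at 0 h and 0 at 3 h. Of the 10 lower bins, 1 held the C/EBP consensus, which was present in 7.69% of all lower bins.

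At 4 strong sites that lost PU.1, the count of the 48 h library was below that at 3 h. They were chosen after their values were seen, from the 5 lower sites with the most reads at 0 h. In the intron of Txndc11, a thioredoxin-domain gene, the counts were 123 and 53 (ratio 0.431, 0.306 to 0.599). The site in the intron of Fam160a1 had 81 and 29 (ratio 0.358, 0.226 to 0.553). PU.1 at Fam160a1 was lower at each later time, with 126, 45.2, 15.3, 13.5 and 8.82 per 10000000 at 0, 3, 12, 24 and 48 h, and at Txndc11 it reached 19.6 at 48 h. The other pair, near Vnn3 (94 and 42 reads) and in the coding sequence of Mybbp1a (93 and 36), also stood lower at 48 h than at 3 h. All 4 bins held the PU.1-IRF composite, and none had more than 3.69 C/EBPα reads per 10000000 at 3 h. Neither trait held at all 5 sites, and the composite was present in 29.3% of the 188 lower bins with 40 or more reads.

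Strong sites that gained PU.1 had some reads already at 0 h. The higher site with the most reads at 3 h, 114 kb upstream of the Polycomb gene Pcgf5, had 72 and 154 reads (ratio 2.14, interval 1.61 to 2.87) and held both a PU.1 and a C/EBP match. C/EBPα reads there were 3.47 at 0 h and 111 at 3 h, and C/EBPβ reads 0 and 89.7. Near Slc24a3, a sodium-calcium exchanger gene, the counts were 50 and 141 (ratio 2.82, 2.03 to 3.98), and C/EBPα was present at 0 h with 40.5 reads and at 3 h with 115. At Ifngr2, a chain of the interferon-γ receptor, 49 and 123 PU.1 reads were counted 24.8 kb upstream (ratio 2.51, 1.79 to 3.57). Sites near Cyp7b1 (57 and 138) and Atp10a (36 and 107) behaved likewise, although C/EBPα reads near Atp10a were only 7.38 per 10000000 at 3 h.

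The strongest sites among those within 1.5-fold were chosen for their small change, so their counts are a description of strong binding only. At the site 44.3 kb upstream of Lifr, the receptor of leukemia inhibitory factor, 275 reads were counted at 0 h and 251 at 3 h (ratio 0.913, interval 0.766 to 1.09). The intron of 9830001H06Rik had 243 and 254, and the sites near Ube2e3, Siglecg and Slc22a27 had 258 and 238, 227 and 253, and 218 and 227. C/EBPα reads at these 5 sites were 23.1 per 10000000 or fewer at 3 h. Other times could be higher, as at Lifr with 59.3 at 30 min and 47.4 at 60 min.

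Higher and lower bins differed in sequence. Over all bins, the C/EBP consensus was present in 12.7% of the higher bins (interval 12.1% to 13.3%), 8.35% of the unchanged (8.10% to 8.61%) and 7.69% of the lower bins (6.92% to 8.52%), against 9.28% of all 200-bp bins of the genome. The PU.1 consensus ran the other way, with 11.6% of higher, 17.9% of unchanged and 18.2% of lower bins, against 1.2% of the genome's bins. Because higher and lower bins held fewer reads than the rest, the shares were taken again in ranges of counts. The range of 40 or more reads is open-ended and not fully matched: 830 of its 984 higher and 161 of its 188 lower bins had 40 to 79 reads, while of the 1364 bins with 160 or more reads 4 were higher and 3 lower. At 20 to 39 reads the C/EBP shares were 15.1%, 8.62% and 7.54%, and at 40 or more reads 18.1%, 8.77% and 10.6%. The PU.1 shares at 20 to 39 reads were 12.8%, 16.9% and 23.7%. In both count ranges the C/EBP share was highest in the higher bins, and at 20 to 39 reads the PU.1 share was highest in the lower bins.

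The PU.1-IRF composite was not more frequent in lower bins when all bins were taken, with 7.23% of lower, 8.14% of unchanged and 6.39% of higher bins. At 40 or more reads the PU.1-IRF composite was present in 29.3% of the 188 lower bins (interval 22.9% to 36.3%), 13.3% of the unchanged (12.7% to 13.9%) and 12.8% of the higher (10.8% to 15.1%), against 2.21% of the genome's bins. At 20 to 39 reads the same shares were 7.27%, 6.66% and 8.05%, so this contrast was seen only at the strong sites. The E-box CAGGTG, bound by the B cell regulator E2A among other factors, was present in 24.5% of lower bins (18.5% to 31.3%), 13.2% of unchanged and 9.96% of higher bins at 40 or more reads, and in 18.7%, 13.2% and 10.5% at 20 to 39 reads, against 12.0% of the genome's bins. The consensus TCCCNNGGG of the B cell factor EBF1 did not share this order. At 40 or more reads it was present in 3.19% of lower (1.18% to 6.82%), 4.98% of unchanged and 4.17% of higher bins. The AP-1 consensus was present in 6.34% of higher (5.50% to 7.26%), 4.45% of unchanged and 3.90% of lower bins at 20 to 39 reads, with 3.14% in the genome. The RUNX consensus TGTGGTT was present in 6.60%, 5.86% and 6.46% of higher, unchanged and lower bins at 20 to 39 reads, and in 8.94% (7.23% to 10.9%), 6.17% (5.77% to 6.60%) and 7.45% (4.13% to 12.2%) at 40 or more, with 4.73% in the genome.

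**Figure D2:**
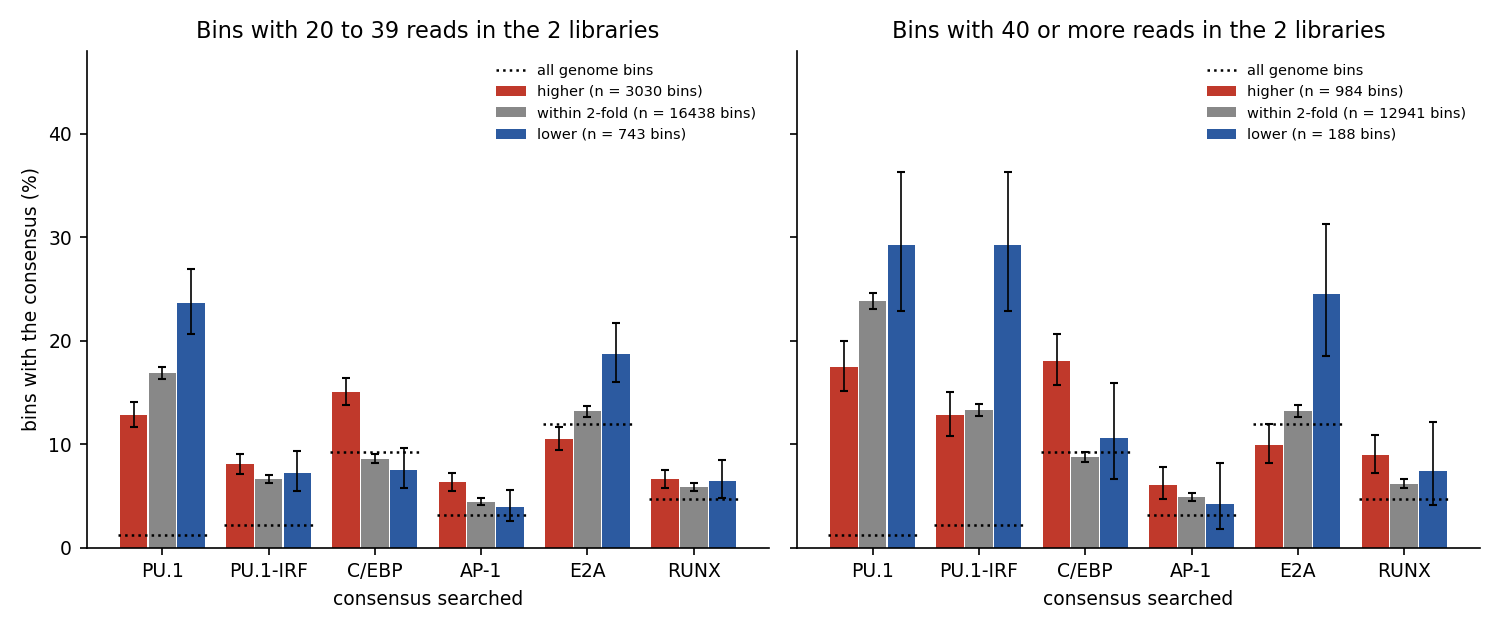
Share of bins (y axis, %) that hold each consensus (x axis), for bins with 20 to 39 reads (left) and 40 or more reads (right); red, grey and blue bars are bins higher, within 2-fold and lower at 3 h, whiskers are exact 95% intervals and dotted lines the share of all 200-bp bins of the genome. C/EBP is tallest in red (15.1% and 18.1%), and PU.1, PU.1-IRF at the strong sites and E2A are tallest in blue.

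Read by sequence instead of by class, bins with the C/EBP but not the PU.1 consensus were higher in 30.5% of cases (29.3% to 31.8%), and bins with PU.1 but not C/EBP in 14.3% (13.6% to 15.0%). Bins with both were higher in 21.1% (18.4% to 24.0%), close to the 21.6% of bins with neither. The lower share was 5.61% with C/EBP alone and 7.56% with PU.1 alone. These shares were not taken in ranges of counts. The PU.1 consensus was present in 23.4% of bins with 40 or more reads and 16.6% of all bins, and calls were rarer at high counts. The part of read counts in these differences was not tested.

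From 10 min on, C/EBPα reads were on average most numerous at the bins that gained PU.1, while at 0 h unchanged bins had the most. Mean C/EBPα reads per bin and 10000000 reads in the higher bins were 2.43 at 0 h, 3.20 at 10 min, 8.60 at 30 min, 8.93 at 60 min and 10.9 at 3 h. In unchanged bins they were 2.64 at 0 h and 5.84 at 3 h, and in lower bins 2.06 and 2.83. At 10 min unchanged bins had 2.91 and lower bins 1.96, and at 30 min 5.51 and 2.76. A minority of bins carried these means: the medians in higher, unchanged and lower bins were 2.37, 1.58 and 1.58 at 30 min and 3.69, 2.77 and 1.84 at 3 h. No PU.1 library was analysed between 0 and 3 h, so the order in time of the PU.1 and C/EBPα changes cannot be read from these libraries. C/EBPα reads were more numerous at 3 h than at 0 h in 69.4% of higher bins (68.6% to 70.1%), 60.7% of unchanged (60.3% to 61.2%) and 48.6% of lower bins (47.1% to 50.1%). They were fewer in 26.3% of higher, 34.3% of unchanged and 43.3% of lower bins, and equal in the remaining bins. Reads were scaled to depth for this comparison, with 8651671 kept reads at 0 h and 10842274 at 3 h. A bin with the same nonzero count in both libraries was thus scored as fewer at 3 h, so the shares with fewer reads include such ties. Mean C/EBPβ reads were 2.88 at 0 h and 5.65 at 3 h in higher bins, and 2.34 and 2.20 in lower bins. These libraries share no reads with the PU.1 libraries, but the C/EBPα and PU.1 reads of a bin share its mappability and base composition. Reads were 50 bases long in the C/EBPα libraries of 10, 30 and 60 min, 36 in the other C/EBPα libraries and 40 in those of C/EBPβ. The part of read length in the differences between times was not tested.

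The share of bins with more PU.1 grew with the C/EBPα reads in the bin at 3 h. Among bins with 20 to 39 PU.1 reads, 9.12% (8.40% to 9.88%) were higher where 0 or 1 C/EBPα read was counted, 14.6% (13.6% to 15.6%) at 4 to 7 reads, 30.1% (27.4% to 33.0%) at 16 to 31 and 48.9% (45.6% to 52.3%) at 32 or more. The share of lower bins went from 5.36% to 0.670% along the same steps. With C/EBPα reads of the 0 h library the rise was smaller and did not reach the sparse top groups: 14.1% were higher at 0 or 1 read, 15.1% at 2 or 3, 16.7% at 4 to 7, 23.1% (19.2% to 27.4%) at 8 to 15, 16.6% (11.1% to 23.3%) of 157 bins at 16 to 31, and 10.6% (3.55% to 23.1%) of 47 bins at 32 or more. Of the 20211 bins, 5930 had 0 or 1 C/EBPα read at 3 h and 895 had 32 or more.

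**Figure D3:**
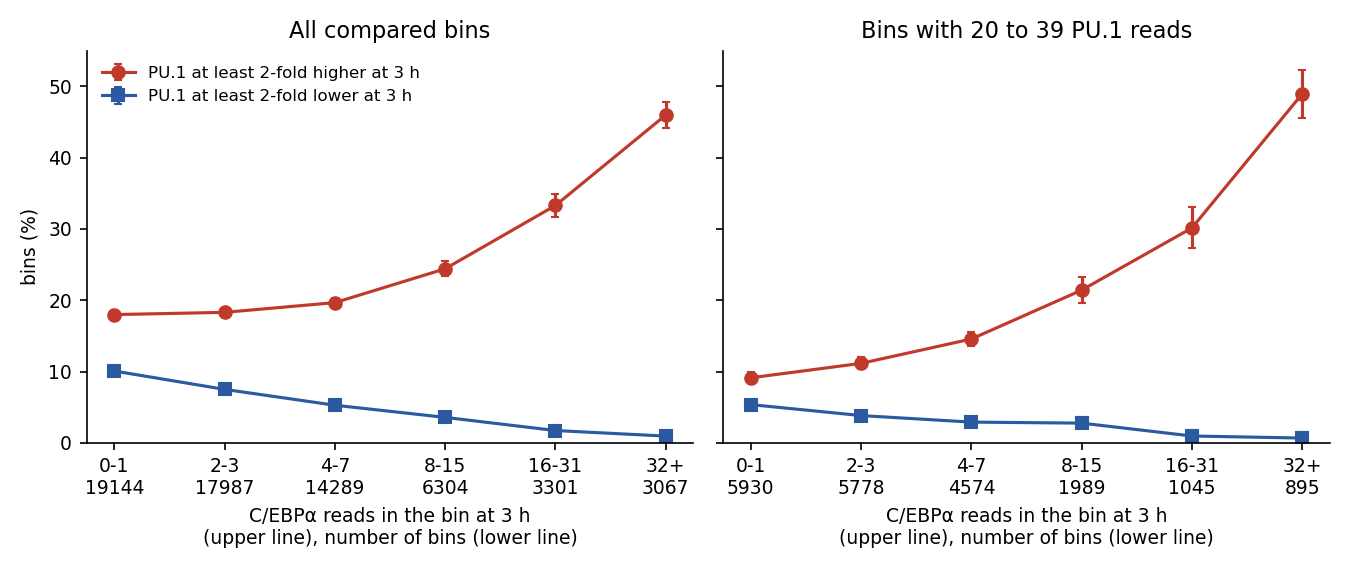
Share of PU.1 bins at least 2-fold higher (red circles) and lower (blue squares) at 3 h (y axis, %) by the number of C/EBPα reads counted in the bin at 3 h (x axis, number of bins beneath), for all bins (left) and bins with 20 to 39 PU.1 reads (right); whiskers are exact 95% intervals. On the right the red line runs from 9.12% to 48.9% and the blue line from 5.36% to 0.670%.

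In the later PU.1 libraries the mean levels of higher and lower bins lay between their values at 0 h and 3 h. The 0 h and 3 h counts set the classes and so lie apart by choice, bins chosen for extreme counts move back towards the middle in any other library by counting error alone, and comparisons of later libraries with 0 h share the 0 h library, so the levels are given side by side. Mean PU.1 reads per bin and 10000000 reads in higher bins were 7.53, 22.9, 21.5, 15.0 and 15.6 at 0, 3, 12, 24 and 48 h. In lower bins they were 19.4, 6.85, 12.3, 9.14 and 8.94. Unchanged bins went from 30.3 at 0 h and 31.9 at 3 h to 22.9 at 24 h and 24.8 at 48 h. C/EBPα in the higher bins was 10.7 at 12 h and 6.64 at 48 h, while C/EBPβ there went from 5.78 at 12 h to 10.5 at 48 h.

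**Figure D4:**
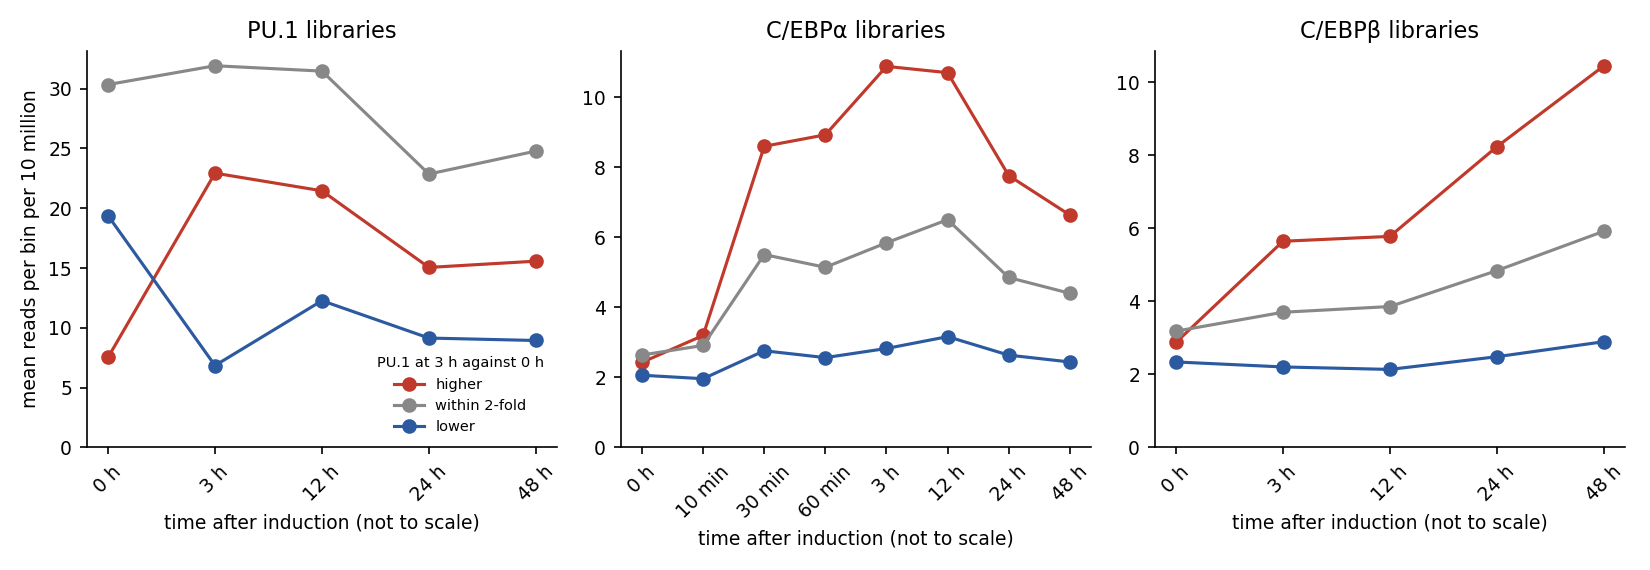
Mean reads per 200-bp bin, scaled to 10000000 reads per library (y axis), at each time after induction (x axis, not to scale) for PU.1, C/EBPα and C/EBPβ libraries, 1 library per point; red, grey and blue are bins higher, within 2-fold and lower for PU.1 at 3 h. Red and blue cross between 0 and 3 h in the PU.1 panel by choice of the bins, and the red line of C/EBPα stands at 8.60 at 30 min, against 5.51 in grey and 2.76 in blue.

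Bins with 16 or more PU.1 reads at 48 h differed in sequence from those with 0 to 3. Among lower bins this was clear for the PU.1 consensus and the E-box, while the AP-1 and C/EBP intervals overlapped. Grouped by their reads in the 48 h library, which the choice of bins did not use, 4434 of the 13594 higher bins had 16 or more reads and 2030 had 0 to 3. The AP-1 consensus was present in 9.29% (8.45% to 10.2%) of the former and 2.96% (2.26% to 3.79%) of the latter, the C/EBP consensus in 16.5% (15.4% to 17.6%) and 10.4% (9.10% to 11.8%), and the PU.1 consensus in 15.7% and 8.67%. The E-box CAGGTG was present in 8.41% and 12.5%. C/EBPβ at 48 h was 19.2 reads per 10000000 in the former and 3.63 in the latter. The former also had more PU.1 reads at 3 h, 32.5 against 16.1 per 10000000, and the part of this in the contrast was not tested. Higher bins with 4 to 7 and 8 to 15 reads at 48 h lay nearer to those with 0 to 3. In them AP-1 was present in 3.54% and 4.35%, C/EBP in 10.8% and 11.2%, PU.1 in 9.80% and 10.0% and the E-box in 13.3% and 11.2%. Among lower bins, the E-box was present in 19.8% (17.6% to 22.2%) of the 1174 with 0 to 3 reads at 48 h and in 12.4% (10.0% to 15.2%) of the 651 with 16 or more. In the same order, AP-1 was present in 3.49% (2.52% to 4.71%) and 6.14% (4.43% to 8.27%). The C/EBP shares were 7.84% (6.36% to 9.52%) and 9.83% (7.65% to 12.4%), and the PU.1 shares 13.8% and 26.4%. Their direction was thus not particular to the higher bins, though the AP-1 and C/EBP intervals overlapped. These lower bins also differed in PU.1 at 0 h, 15.8 against 29.5 reads per 10000000, and the part of this was not tested.

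Lower bins lay farther from genes. Of the lower bins, 11.1% (10.2% to 12.1%) were within 1000 bp of the transcription start site (TSS) of a protein-coding gene, against 16.9% (16.3% to 17.5%) of higher and 16.1% of unchanged bins, and 48.1% of the lower bins were intergenic against 37.9% of the higher. At 20 to 39 reads the TSS shares were 7.40% in lower and 15.2% in higher bins. The median distance to a TSS was 19335 bp for lower and 12069.5 bp for higher bins.

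Of the gene lists examined, macrophage effector genes had the largest share of higher bins, though not among bins with 20 or more reads. Each bin was assigned to the gene with the nearest protein-coding TSS, which does not show that it regulates that gene. Of 213 bins near macrophage effector genes, 86 were higher (40.4%, interval 33.7% to 47.3%, against 21.2% of all bins) and 1 lower, with a median log2 ratio of 0.74 against 0.26 over all bins. Of the 32 genes of this list with bins, 31 had more reads at 3 h, against 8040 of all 12367 genes with bins. Near Mmp8, a neutrophil collagenase gene, 13 of 17 bins were higher, with 123 reads at 0 h and 310 at 3 h in sum. At Mpeg1, which encodes a pore-forming protein of macrophages, 6 of 13 bins were higher (191 and 336 reads). Ctsb and Dab2, a lysosomal protease and an endocytic adaptor, moved less, with 400 and 429, and 208 and 278 reads.

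The list of macrophage surface and signalling genes had 70 of 250 bins higher (28.0%, 22.5% to 34.0%) and 1 lower, with a median of 0.51. Tlr4, the receptor of lipopolysaccharide, had 6 of 24 bins higher and 455 and 491 reads in sum, Ifngr2 6 of 22 (325 and 496), Mrc1, the mannose receptor, 3 of 17 (467 and 482), and the inhibitory Fc receptor gene Fcgr2b 2 of 15 (319 and 325). Myeloid and AP-1 regulators had 68 of 274 bins higher (24.8%, 19.8% to 30.4%) and 15 lower. In that list Runx1 had 19 of 56 bins higher and 2 lower (872 and 1160 reads), and Jun, an AP-1 subunit, 9 of 33 higher and 3 lower (353 and 551). Klf4 and Klf6, zinc finger factors, had 681 and 678, and 247 and 385 reads. Proteasome subunits, a housekeeping list, had 26 of 89 bins higher (29.2%, 20.1% to 39.8%) and 2 lower. Psma1 had 4 of 13 higher and 1 lower (144 and 186 reads), Psma6 3 of 13 higher (262 and 309), Psma3 3 of 7 (61 and 107), and Psmb3 0 of 7 (76 and 124). The share of higher bins in this housekeeping list was above that of all bins, 21.2%, though its interval reached below it.

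Near B cell regulators the share of higher bins lay below the 21.2% of all bins, and near B cell receptor and surface genes it was close to it. Of 422 bins near B cell regulators, 71 were higher (16.8%, 13.4% to 20.7%) and 25 lower (5.92%, 3.87% to 8.62%), with a median of 0.09. Of 16 genes, 7 had more and 9 fewer reads at 3 h. Ebf1, which specifies the B lineage, had 12 bins higher and 5 lower of 78 (1681 and 1722 reads). Foxo1, a forkhead factor of B cell development, had 1 higher and 5 lower of 35 (664 and 633), and Bach2, a repressor of myeloid genes in B cells, 5 and 3 of 54 (1193 and 1129). Bcl11a had 7 higher and 2 lower of 48 (1062 and 1136). B cell receptor and surface genes had 72 of 341 bins higher (21.1%) and 20 lower (5.87%), against 6.78% lower of all bins. Of the 26 genes of this list with bins, 15 had more and 11 fewer reads at 3 h. Those with fewer included Cd79b (172 and 154) and Cd37 (221 and 167). Lyn and Inpp5d, a kinase and a phosphatase that act downstream of the receptor, had 1003 and 1110, and 1035 and 1033 reads. Ptprc, which encodes the leukocyte phosphatase CD45, had 10 of 32 higher and 1 lower (629 and 793). Pik3ap1, an adaptor of PI3-kinase, had 13 of 42 higher (1050 and 1284).

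The order of the lists depended in part on the scaling and the reads. With ratios centred on the median of all bins, 30.5% of the bins of macrophage effector genes were higher and 1.41% lower, against 13.5% and 11.02% for all bins. Proteasome subunits followed with 24.7% higher, above the 18.4% of macrophage surface and signalling genes. The lowest centred shares of higher bins were 11.7% for B cell receptor and surface genes and 12.3% for B cell regulators. At 20 or more reads per bin, the shares higher were 23.1% of 39 bins for proteasome subunits, 22.3% of 121 for macrophage effector genes, 14.8% for myeloid and AP-1 regulators, 14.1% for macrophage surface and signalling genes, 11.6% for B cell receptor and surface genes, 5.58% for B cell regulators and 11.7% for all bins.

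**Figure D5:**
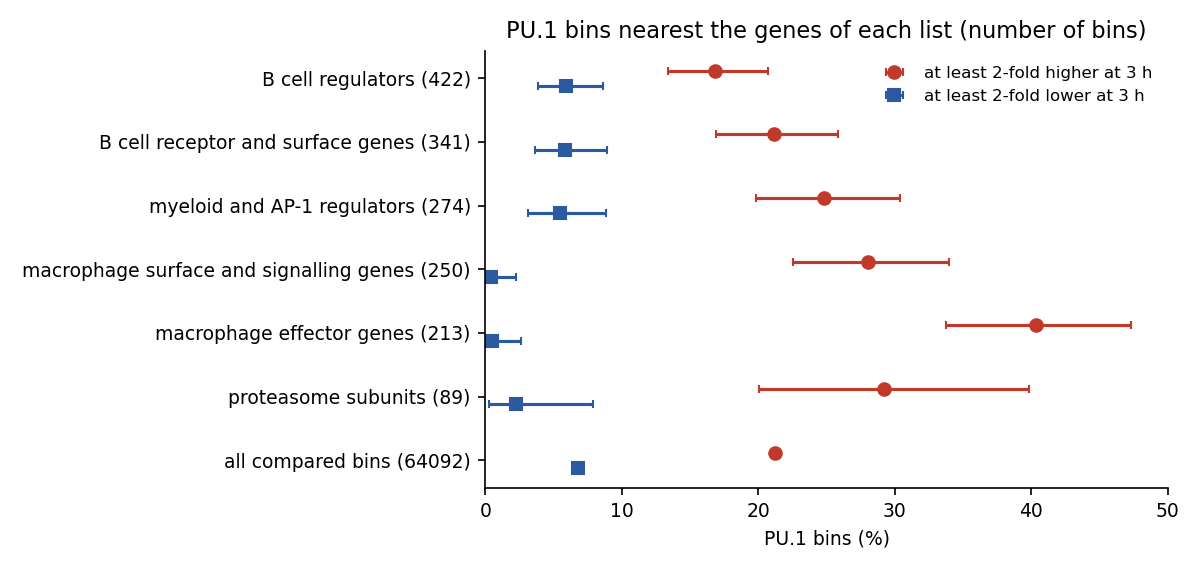
Share of PU.1 bins at least 2-fold higher (red circles) and lower (blue squares) at 3 h (x axis, %) for bins whose nearest gene is in each list, with the number of bins in parentheses; whiskers are exact 95% intervals. Macrophage effector genes lie farthest to the right at 40.4% higher, B cell regulators at 16.8%, and all bins at 21.2%.

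In the genomic windows that the study displays or tests, 22 windows held a compared bin, and in each the bin with the most reads was taken. It was higher at 3 h in 9, within 2-fold in 13 and lower in none, where 21.2% of all compared bins were higher and 6.78% lower. Over all 120 compared bins of these windows, 53 were higher (44.2%) and 0 lower. The windows were chosen by the study, so these counts are no independent evidence of direction. In the window of Sfpi1, which encodes PU.1 itself, the bin 0.735 kb downstream of the TSS had 70 reads at 0 h and 60 at 3 h (ratio 0.857, interval 0.597 to 1.23). Of the 9 bins of that window 4 were higher and 0 lower, and the 9 bins nearest to the TSS of Sfpi1 held 159 and 200 reads in sum. Among 3 windows named for Cebpb, the gene of C/EBPβ, the bin at chr2:167585601-167585800 had 20 and 63 reads (ratio 3.15, 1.88 to 5.50) with C/EBPα reads of 33.5 and 111 per 10000000. The other bins, at chr2:167579601-167579800 and chr2:167602801-167603000, had 3 and 12 (ratio 4, 1.08 to 22.1) and 45 and 50 reads.

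At other genes the strongest bin of a window and its remaining bins often differed in call. The strongest bin at Il1b, the interleukin-1β gene, had 80 and 118 reads (ratio 1.48, 1.10 to 1.98), within 2-fold, while 3 of the 5 bins there were higher. At Fos, an AP-1 subunit, a bin 14.6 kb downstream of the TSS had 0 and 9 reads (3 h share 100%, interval 66.4% to 100%). A bin 5.14 kb upstream had 25 and 30. Gadd45b, a stress-response gene, had 3 and 13 (ratio 4.33, 1.19 to 23.7), and Ctsd, a lysosomal protease gene, 4 and 11 (ratio 2.75, 0.815 to 11.8). Fgd4 (8 and 17), Rassf3 (5 and 11) and Csf1, the gene of the macrophage growth factor (3 and 8), also counted as higher, with intervals of the ratio that include equal counts. At Tyrobp, an adaptor of activating receptors, 25 and 20 reads were counted although C/EBPα reads were 6.94 at 0 h and 62.7 at 3 h. Nfe2 had 16 and 21 reads with C/EBPα reads of 42.8 and 170. The strongest bins of Cd40, Plek, Sla, Itgal, Ehd1, Nfat5 and the window of Evi2b lay within 2-fold. Among all bins of these windows, 2 of 5 were higher at Cd40, 0 of 5 at Plek, 4 of 17 at Sla, 0 of 2 at Itgal, 5 of 8 at Ehd1, 3 of 5 at Nfat5 and 6 of 12 at Evi2b, and 0 were lower. Windows at Mmp12, Gbe1, Tgfbr2, Tlr4 and Dusp1 held no bin with 8 reads in either library.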

How the data were processed

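ChIP-seq reads of PU.1 at 0 h and 3 h after induction were compared, 1 library each, and the 16 other libraries of the series served as readouts. Alignment by the authors was to mm9 with no mismatch allowed, and they discarded duplicate tags and those with several alignments; the submitters' processing notes name Bowtie and HOMER. The deposited files hold the position and strand of each aligned read, with no count, score or input control. Reads were 36 bases long in both PU.1 libraries. One line of the 0 h library without a chromosome name was left out.

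One read was kept per position and strand on chromosomes 1 to 19, which removed 0 reads from either PU.1 library. The 5′ ends were moved 75 bp inward, the 0 h library was thinned to 6414863 reads (seed 1), and reads were counted in 200-bp bins. Bins with 8 or more reads in either library were kept, and a bin was called higher or lower at a 2-fold difference after 1 read was added to both counts. Other libraries were scaled to 10000000 kept reads. At this depth a bin with 8 reads has wide counting error, and intervals are exact at a level of 95%.

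Groups came from the time given in the labels. Consensus letters were searched on both strands of mm9 (NCBIM37), and genes and TSSs came from GENCODE vM1. Named sites were the 10 largest increases, the 10 largest decreases and the 5 strongest with a change under 1.5-fold, the 4 genes with the most bins in each gene list, and the study's display windows. The 5 strongest lower and higher sites were added after their values were seen; 1 of the lower sites is not reported here, so statements on the other 4 do not cover it. The members, motifs and gene lists were chosen with earlier results of these data known. Alternatives changed the fold, the minimum of reads, the bin position, the shift, the thinning, the scaling, the reads added, the interval, the unit and the distance from a TSS. The counting was tested on simulated data. Analyses used Python 3.11.15, numpy 2.4.6, pandas 2.3.3 and scipy 1.17.1.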

Additional observations from a re-analysis of the deposited data

How the results depend on the processing

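The excess of higher over lower bins kept its direction under each of the 15 alternatives, from 1.22 times with centred ratios to 5 times at 4-fold. Centring balances the bins above and below the median by construction, so that setting is no check of the direction. Lowering the fold to 1.5 gave 23198 higher and 9560 lower bins, and 4-fold gave 2850 and 570. A minimum of 12 reads gave 36557 bins, 6311 higher and 1533 lower, and 16 reads gave 24763, 3643 and 759. Adding 4 reads gave 8219 and 2040, centring on the median 8638 and 7061, and intervals that exclude equal shares 6280 and 1317. Joined sites numbered 40526, with 8558 higher and 2893 lower.

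The C/EBP consensus in higher bins was 11.3% at 1.5-fold, 16.5% at 4-fold, 15.1% and 16.9% at minimums of 12 and 16 reads, 13.7% with centred ratios, 14.2% with 4 reads added, 15.5% with the interval, 13.4% in sites and 13.3% away from TSSs. In lower bins it was 9.30% at 4-fold and 8.58% with the interval. In the same order, the higher bins with more C/EBPα reads at 3 h than at 0 h were 67.4%, 74.9%, 76.0%, 80.6%, 70.9%, 72.2%, 76.1%, 68.1% and 70.5%. The lower bins with more C/EBPα reads were 50.7% at 1.5-fold, 45.8% at 4-fold and 51.1% at 16 reads.

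PU.1 at 12 h against 0 h shares the 0 h library with the choice of bins, so its values describe the choice as well. Reads were scaled to depth, so a bin with the same nonzero count in both libraries was scored as fewer at 12 h. Higher bins with more reads at 12 h were 91.9%, and 87.3% at 1.5-fold, 98.1% at 4-fold, 93.9% and 94.7% at 12 and 16 reads, 93.1% without thinning, 94.6% centred, 94.9% with 4 reads added, 96.2% with the interval and 91.2% away from TSSs. Lower bins with fewer reads at 12 h were 82.0%, and 76.9% at 1.5-fold, 91.1% at 4-fold, 85.9% and 90.3% at 12 and 16 reads, 79.4% centred, 86.5% with 4 reads added, 90.6% with the interval and 85.1% away from TSSs. The remaining 76 of 135 values lay within the main interval or within 1.5 times the main count.

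No paired analysis was possible because each time point has 1 library. Depth limits single bins most: at 8 to 11 reads every bin lies outside 2-fold. Without an input control, copy number and mappability were not tested, and a difference between the libraries cannot be told apart from a difference between the time points.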

Other observations

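The genes with the most changed PU.1 bins were listed after the values were seen, with bins assigned to the nearest TSS. Over all bins 21.2% were higher, and the shares of Cited2 and Foxp1 lay near this background. The most higher bins lay near Cited2, a transcriptional coregulator gene, with 25 of 102 bins higher and 2 lower (1495 reads at 0 h and 2003 at 3 h in sum). Jmjd1c, a histone demethylase family gene, had 24 of 45 higher and 2 lower (621 and 968), and Foxp1, a forkhead factor needed in B cell development, 22 of 85 higher and 1 lower (1196 and 1460). Trib1, a pseudokinase that promotes the breakdown of C/EBPα, had 20 of 45 higher and 1 lower (484 and 812). At Pik3r1, the regulatory subunit of PI3-kinase, 19 of 45 bins were higher and 0 lower (454 and 733), and at Abca1, a cholesterol exporter, 15 of 22 were higher and 1 lower (176 and 417). Genes with more bins have more chances to enter such a list.

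Other genes were among the 25 with the most lower bins, against 6.78% lower over all bins. The most lower bins lay near Sfi1, with 18 of 231 lower and 14 higher, close to that share. Near Ndufa4, a mitochondrial respiratory gene, 8 of 27 bins were lower and 0 higher (590 and 388 reads). Near Ccdc6 all 6 bins were lower, with 98 reads at 0 h and 34 at 3 h in sum. Eya1 had 8 of 24 bins lower and 1 higher (516 and 469). Tbc1d1 and Zeb2 had bins of both kinds, 15 higher and 7 lower of 64, and 17 higher and 6 lower of 64. Their shares lay not far from the 21.2% higher and 6.78% lower of all bins. Within joined sites, 207 of 40526 held bins of both directions.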
